A study of Mus musculus with 20 samples.

Results

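The 10 genes described here are markers used for CD11c-bearing and lipid-associated macrophages of fat: Itgax (CD11c), Trem2, Gpnmb, Cd9, Mmp12, Atp6v0d2, Lgals3, Msr1, Cd84 and Cd68. They were chosen by name and found as the probe sets annotated to exactly 1 of these symbols, 17 of the 45101 on the array, and each gene is given by its probe set with the highest mean log2 intensity over all arrays. All 10 passed the filter on low values, a filter which kept 10603 of 18193 genes. RNA from visceral fat of 20 female C57BL/6J mice was hybridized to Affymetrix mouse arrays, 1 mouse per array, to ask how a high fat diet and pregnancy change this tissue. Each of the 4 groups held 5 mice: control non pregnant and control pregnant mice ate a diet with 10% fat, HF non pregnant and HF pregnant mice a diet with 58% fat, and the pregnant mice were killed at E18.5. The labels give E18.5 for the non pregnant mice too, so the groups follow diet and pregnancy status. A legend of the study names the depot as mesenteric. The tissue was whole fat from which visible lymph nodes had been dissected, not sorted cells, so that fewer macrophages and less RNA per macrophage cannot be told apart.

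In obese fat, macrophages gather around dying adipocytes in crown-like structures, where they take up lipid and break it down in lysosomes. Macrophages of this kind carry CD11c or the lipid receptor TREM2 on their surface and express genes of lipid uptake, of the lysosome and of matrix breakdown. CD11c is also the classical surface marker of dendritic cells, and several of the other genes are used by macrophages of all kinds or by other cells.

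Of the adipocyte markers, Adipoq (adiponectin) had group means of log2 intensity between 14.26 and 14.49 and Retn (resistin) between 13.23 and 13.83, while Lep (leptin), the lowest of the 7 on average, lay between 9.43 and 10.42. The general macrophage markers Csf1r, the receptor for the macrophage growth factor CSF1, and Adgre1, a surface receptor of mature macrophages, had group means between 11.74 and 12.30 and between 8.93 and 9.18. Array medians lay between 60.69 and 64.73 and the number of probe sets over an intensity of 100, the study's threshold of expression, between 17646 and 18833. Of the 10 genes, Gpnmb, Cd9, Lgals3, Msr1 and Cd68 exceeded 100 on all 20 arrays and Cd84 on 19. Itgax did so on 16 arrays, Trem2 on 11, Atp6v0d2 on 10 and Mmp12 on 5. Itgax lay at 51.25 to 70.75 in the 4 mice under 100, near the array medians, and Mmp12 at 22.40 to 50.23 in the 15 mice under 100, below them. At these levels small differences are hard to separate from background.

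None of the 10 genes was called as changed with diet or pregnancy in any of the 7 comparisons made (limma, Benjamini-Hochberg adjusted p over 19802 probe sets, threshold 0.05). Over all genes, 0% to 1.34% were called in these comparisons. With 5 mice per group the absence of a call does not show that a gene was unchanged. For each of the 10 genes the groups overlapped in all 4 comparisons of groups. What the 20 mice did show was that the 10 genes did not vary together. Itgax, Cd84, Cd68 and Msr1 were high or low in the same mice, and Gpnmb, Mmp12 and Lgals3 did so separately. Trem2 ran opposite to Itgax and had Pearson coefficients of 0.44 to 0.57 with Gpnmb, Mmp12 and Lgals3. The 10 genes are therefore called by their names below, and not as 1 cell population.

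**Figure D1:**
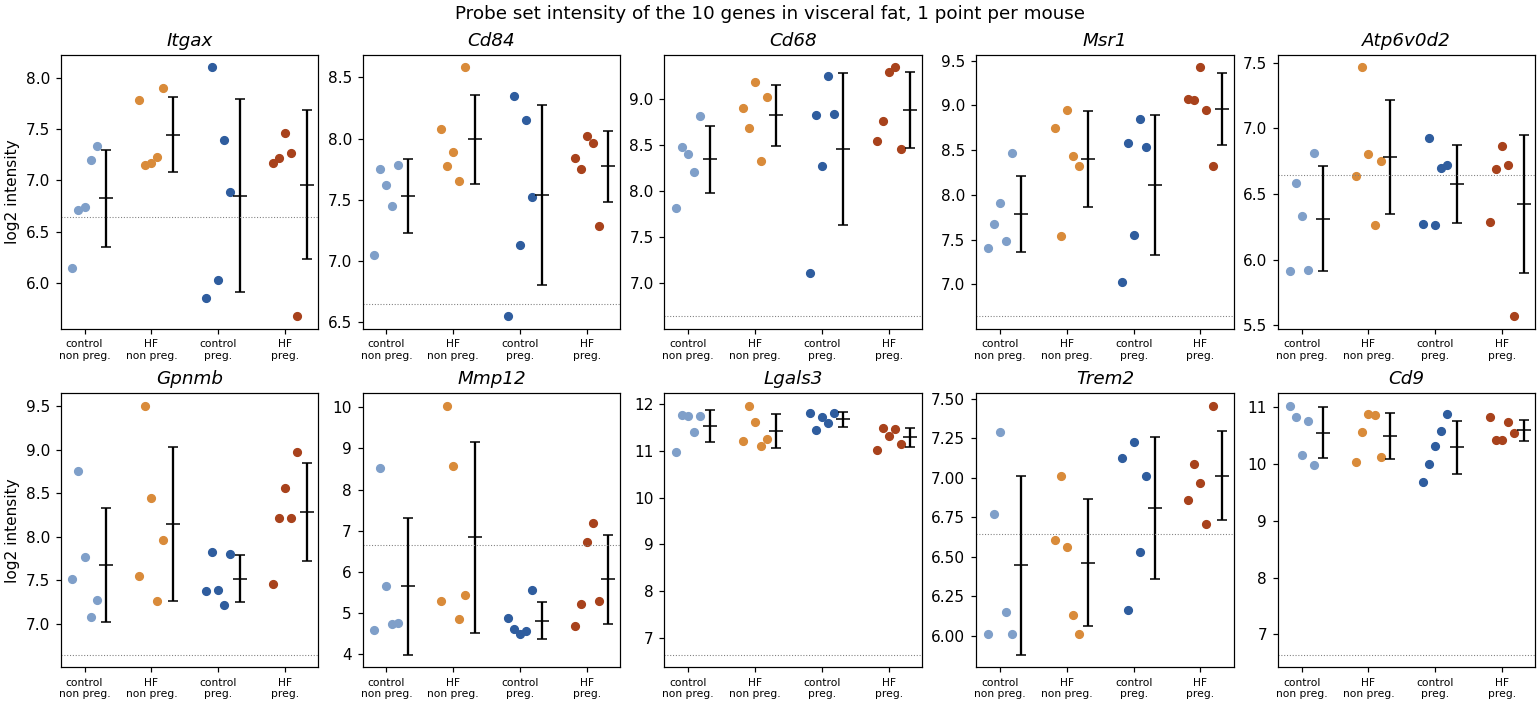
Log2 intensity (y axis) of the 10 genes in the 4 groups (x axis), 1 point per mouse, with the group mean and SD as a bar to the right and a dotted line at an intensity of 100. The groups overlap for every gene, and for Itgax the points of the control pregnant group run from 57.81 to 274.19.

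Itgax encodes CD11c, the alpha chain of an integrin on dendritic cells and inflammatory macrophages. Its intensities were 70.75, 104.95, 106.92, 146.49 and 161.67 in control non pregnant mice 1 to 5 and 219.80, 141.60, 143.60, 149.67 and 238.76 in HF non pregnant mice 1 to 5. In control pregnant mice they were 57.81, 274.19, 65.35, 167.70 and 118.64, and in HF pregnant mice 143.59, 149.01, 176.25, 153.74 and 51.25. The control pregnant group thus held both the highest and one of the lowest values of the series, 4 of the 5 HF pregnant mice lay close together, and HF pregnant mouse 5 was the lowest of all. Between HF and control non pregnant mice the log2 fold change was 0.62 ± 0.39 (SE; 95% confidence interval -0.21 to 1.45, adjusted p = 0.321). From HF non pregnant to HF pregnant mice it was -0.49 ± 0.39 (interval -1.31 to 0.34, adjusted p = 1), and without HF pregnant mouse 5 it was -0.17. The interaction of diet and pregnancy, that is the response to pregnancy on the HF diet less that on the control diet, was -0.51 on the log2 scale, with an interval from -1.68 to 0.66. These intervals hold both no difference and differences of over 1.5-fold.

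Msr1 encodes scavenger receptor A, which takes up modified lipoproteins. Its intensities were 169.82, 204.87, 240.12, 179.33 and 353.60 in control non pregnant mice and 430.75, 186.82, 495.87, 347.23 and 319.55 in HF non pregnant mice. In control pregnant mice they were 130.48, 382.61, 187.54, 460.96 and 370.75, and in HF pregnant mice 536.38, 533.19, 687.55, 492.70 and 320.45. In HF pregnant mice 4 of 5 values were above every value of the control pregnant group, and mouse 5 was not. Averaged over pregnancy, the log2 fold change of HF against control diet was 0.73 ± 0.24 (SE; interval 0.24 to 1.23, adjusted p = 0.0882), the smallest adjusted p of the 10 genes in this comparison. It was 0.86 in pregnant mice (interval 0.16 to 1.55, adjusted p = 0.301) and 0.61 in non pregnant mice (interval -0.09 to 1.31, adjusted p = 0.283). A second Msr1 probe set over 100 on 17 arrays gave 0.43 for the diet averaged over pregnancy (adjusted p = 0.126).

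Whether Msr1 passed the threshold depended on the arrays in the fit. Without control pregnant mouse 2 the diet difference of Msr1 was 0.79 and passed (adjusted p = 0.0358), in a fit that called 20.6% of all genes instead of 1.34%. That array and the one of control non pregnant mouse 4 had what is called a pancreatic signal here. The acinar enzyme gene Cela3b lay 4.12 and 3.57 log2 units above its mean over the arrays. The name rests on this gene alone, the only 1 tested of 10 listed acinar genes. With both arrays left out the diet difference of Msr1 was 0.76 (adjusted p = 0.0573). The part of this signal in the Msr1 values was not tested.

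Cd84 encodes a receptor of the SLAM family on many leukocytes, and Cd68 encodes a glycoprotein of the lysosomal membrane that serves as a general marker of macrophages. Cd84 ranged from 93.41 to 383.27 over the 20 mice, with the lowest value in control pregnant mouse 1 and the highest in HF non pregnant mouse 5. Cd68 ranged from 139.02, again in control pregnant mouse 1, to 651.71 in HF pregnant mouse 4. Averaged over pregnancy, HF against control diet gave log2 fold changes of 0.35 (interval -0.06 to 0.76, adjusted p = 0.222) for Cd84 and 0.45 (interval -0.01 to 0.92, adjusted p = 0.177) for Cd68.

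Promoter sequence was at hand from RefSeq (GRCm38.p6) for 8 of the 10 genes, not for Msr1 and Atp6v0d2, and 4 short motifs were searched on both strands of the 250 bases before each start after the expression values had been seen. The AP-1 motif TGAGTCA, bound by Fos and Jun proteins, was found in 4 of the 8 genes, Itgax, Cd84, Cd68 and Mmp12, and in 5.16% of all 27025 genes with a sequence. The sequences around it are shown, with the motif in capitals, because it was the only one of the 4 motifs found in more than 1 of the 8 genes.
Itgax, chr7:128129469-128129525, plus strand: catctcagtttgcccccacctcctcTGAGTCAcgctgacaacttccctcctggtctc
Cd84, chr1:171839447-171839499, plus strand: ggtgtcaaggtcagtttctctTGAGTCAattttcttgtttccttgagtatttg
Cd68, upstream, chr11:69666288-69666344, minus strand: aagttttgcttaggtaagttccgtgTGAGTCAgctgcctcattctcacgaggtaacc
Cd68, next to the start, chr11:69666171-69666219, minus strand: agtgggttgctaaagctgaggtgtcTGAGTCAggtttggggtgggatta
Mmp12, chr9:7347305-7347361, plus strand: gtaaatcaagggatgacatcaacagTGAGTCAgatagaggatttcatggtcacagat
The motif began 56 bases before the start of Itgax, 229 bases before that of Cd84, 149 and 24 bases before that of Cd68 and 44 bases before that of Mmp12. The E-box CACGTG, the core of the site of the lysosomal regulators of the MiT family, was found in none of the 8 and in 6.86% of all genes. The M-box TCATGTG of the same family was found in Mmp12 and in 3.72% of all genes, and the PU.1 motif GAGGAAGT before a second start of Mmp12 and in 2.79% of all genes. None of the 4 motifs holds the letters of another. Its relation to the correlations given below was not tested: Mmp12 holds the AP-1 motif and had coefficients of -0.10 with Itgax, 0.024 with Cd84 and 0.24 with Cd68, and for Msr1 there was no sequence. A match is a run of letters only, and occupancy of these promoters was not measured.

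Gpnmb encodes a glycoprotein of lysosomes that is induced in lipid-laden macrophages. Its intensities were 183.25, 433.17, 216.85, 134.48 and 154.02 in control non pregnant and 187.43, 726.05, 348.88, 152.86 and 250.09 in HF non pregnant mice. In control pregnant mice they were 165.88, 225.99, 166.95, 148.53 and 222.25, and in HF pregnant mice 175.06, 296.45, 377.42, 295.90 and 503.17. In HF pregnant mice 4 of 5 values lay above the control pregnant group, and in each of the non pregnant groups mouse 2 was the highest. HF against control diet averaged over pregnancy gave a log2 fold change of 0.62 ± 0.27 (SE; interval 0.06 to 1.18, adjusted p = 0.145). In pregnant mice it was 0.76 (interval -0.03 to 1.56, adjusted p = 0.404).

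Mmp12 encodes macrophage elastase, a secreted enzyme that cuts elastin. Its intensities were 23.98, 366.74, 50.23, 26.54 and 26.95 in control non pregnant and 38.92, 1049.95, 377.74, 28.92 and 43.61 in HF non pregnant mice. In control pregnant mice they were 29.35, 24.38, 22.40, 23.49 and 47.34, and in HF pregnant mice 25.50, 36.98, 106.64, 145.67 and 39.33. Most mice were far under 100, and only 5 of 20 were over it: 1 control non pregnant, 2 HF non pregnant and 2 HF pregnant mice. The log2 fold change of HF against control non pregnant mice was 1.19 with an interval from -0.73 to 3.11 (adjusted p = 0.391), the widest interval of the 10 genes in this comparison. From HF non pregnant to HF pregnant mice it was -1.02, with an interval from -2.93 to 0.90. Both values moved with single mice: without HF non pregnant mouse 2 they were 0.39 and -0.22, without control non pregnant mouse 2 the first was 1.91, and without HF non pregnant mouse 4 the second was -1.51.

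Lgals3 encodes galectin-3, a lectin of macrophages and other cells, and ranged from 2004.28 to 3983.70 over the 20 mice. In pregnant mice it lay at 2067.72 to 2861.88 on the HF and at 2773.83 to 3587.69 on the control diet, with overlap. The log2 fold change was -0.39 ± 0.17 (SE; interval -0.74 to -0.03, adjusted p = 0.357). It was the only one of the 10 genes below 0 for the diet averaged over pregnancy, at -0.24 (adjusted p = 0.180).

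Atp6v0d2 encodes a subunit of the proton pump that acidifies lysosomes. It ranged from 47.50 in HF pregnant mouse 5 to 176.75 in HF non pregnant mouse 2, with group medians of 80.61, 107.73, 104.05 and 103.32 for the control and the HF diet without pregnancy and then for the control and the HF diet with pregnancy. Its interaction of diet and pregnancy was -0.62 on the log2 scale, with an interval from -1.37 to 0.13 (adjusted p = 0.933). Cd9, a tetraspanin of the membranes of many cell types, ranged from 826.87 to 2083.94, and its group medians were 1721.05, 1516.18, 1271.34 and 1495.78 in the same order.

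Trem2 encodes a lipid receptor of macrophages that signals through the adaptor TYROBP. Its intensities were 64.54, 109.27, 156.16, 71.02 and 64.49 in control non pregnant and 97.25, 129.11, 94.30, 70.06 and 64.53 in HF non pregnant mice. In control pregnant mice they were 139.56, 71.63, 149.41, 92.52 and 128.99, and in HF pregnant mice 115.81, 136.05, 124.90, 104.26 and 175.35. All HF pregnant mice were over 100 and 4 of 5 HF non pregnant mice were under it, yet HF non pregnant mouse 2 lay within the HF pregnant range. Averaged over diet, pregnant against non pregnant mice gave a log2 fold change of 0.46 ± 0.19 (SE; interval 0.07 to 0.85, adjusted p = 0.968). It was 0.55 in mice on the HF diet (interval -0.00085 to 1.10, adjusted p = 1) and 0.36 on the control diet (interval -0.19 to 0.91, adjusted p = 0.963). For the diet the difference was 0.02 in non pregnant mice, with an interval from -0.53 to 0.57. A second Trem2 probe set was over 100 on 0 arrays and gave no check.

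Read against all genes, the counts were as follows. In HF against control non pregnant mice 0 of the 10 genes were called, with 0% of all genes called. By limma without adjustment for multiple tests (p under 0.05) it was 0 of the 10 against 17.2% of all genes, and groups that did not overlap were found for 2.11% of all genes and 0 of the 10. The median log2 fold change of the 10 genes was 0.47 against -0.01 over all genes, and 8 of 10 were above 0 against 48.4% of all genes. In HF against control pregnant mice 0 of 10 were called against 0.245% of all genes, and 2 of 10 had an unadjusted p under 0.05 against 13.5%: Msr1 at 0.86 and Lgals3 at -0.39. Groups without overlap made up 3.85% of all genes and none of the 10. The median was 0.27 against 0.05, and 8 of 10 were above 0 against 59.1%. For the diet averaged over pregnancy 0 of 10 were called against 1.34% of all genes, and Msr1 and Gpnmb, 2 of 10, had an unadjusted p under 0.05 against 29.1%. The median was 0.36 against 0.03, and 9 of 10 were above 0 against 55.9%.

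For pregnancy the medians were nearer to 0. In control mice, pregnant against non pregnant, 0 of 10 were called against 0% of all genes, 0 had an unadjusted p under 0.05 against 2.85%, the median was 0.07, and 7 of 10 were above 0 against 49.5%. In HF mice 0 of 10 were called against 0.0377%, 0 had an unadjusted p under 0.05 against 4.31%, the median was -0.04, and 5 of 10 were above 0 against 50%. Groups without overlap made up 0.198% and 1.4% of all genes in these comparisons, and none of the 10. Averaged over diet, 0 of 10 were called against 0.00943%, and Trem2 alone had an unadjusted p under 0.05, against 4.24% of all genes, while 4 of 10 were above 0 against 49.5%. The interaction of diet and pregnancy had 0 of 10 called against 0% of all genes, 0 of 10 with an unadjusted p under 0.05 against 3.13%, and a median of -0.12, with 4 of 10 above 0 against 50.5%. The comparisons share groups, so their values are given side by side and were not set against each other.

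**Figure D2:**
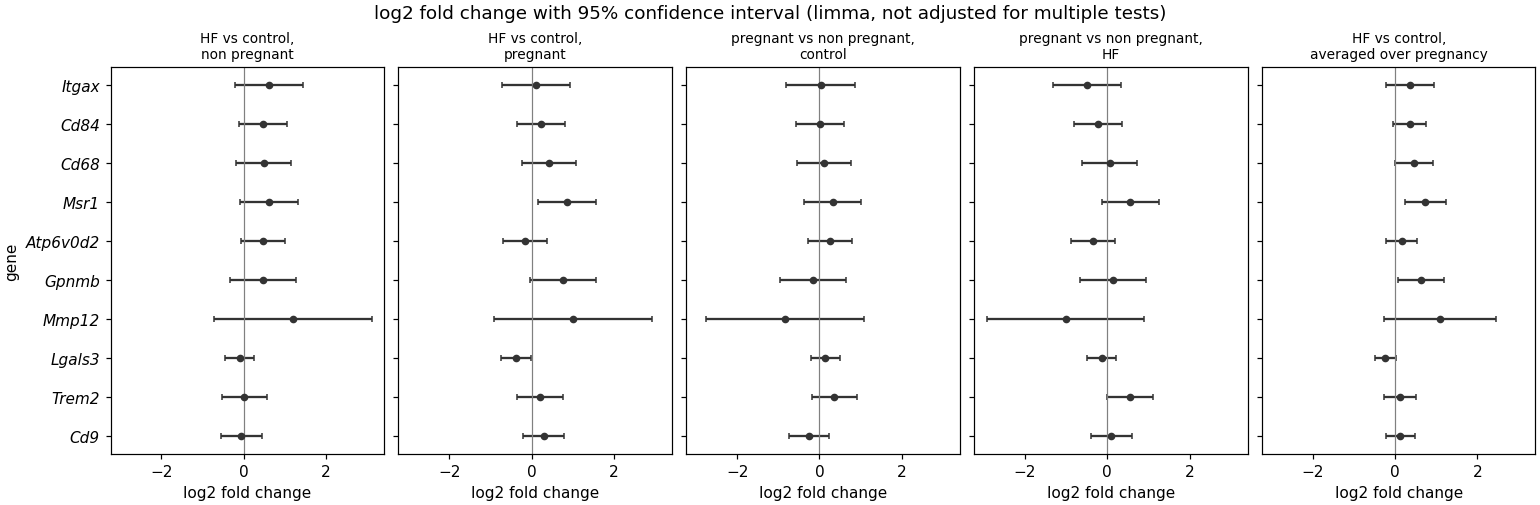
Log2 fold changes (x axis) of the 10 genes (y axis) in 4 comparisons of groups and for the diet averaged over pregnancy, each with its 95% confidence interval, not adjusted for multiple tests. Msr1 at 0.73 and Gpnmb at 0.62 have intervals above 0 for the diet averaged over pregnancy, and Mmp12 has the widest intervals.

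The counts of 0 held under all alternatives run but those that changed the weight of the arrays, left out control pregnant mouse 2 or called genes without adjustment. When limma weighted each array by its estimated quality, 6 genes were called higher in HF than control non pregnant mice (Gpnmb, Mmp12, Atp6v0d2, Msr1, Cd84 and Cd68), in a fit that called 22.6% of all genes higher and 37.8% in either direction. In this fit the array of HF non pregnant mouse 3 had a weight of 11.3 and that of control non pregnant mouse 4 a weight of 4.45, against at most 2.86 for the other 18.

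**Figure D3:**
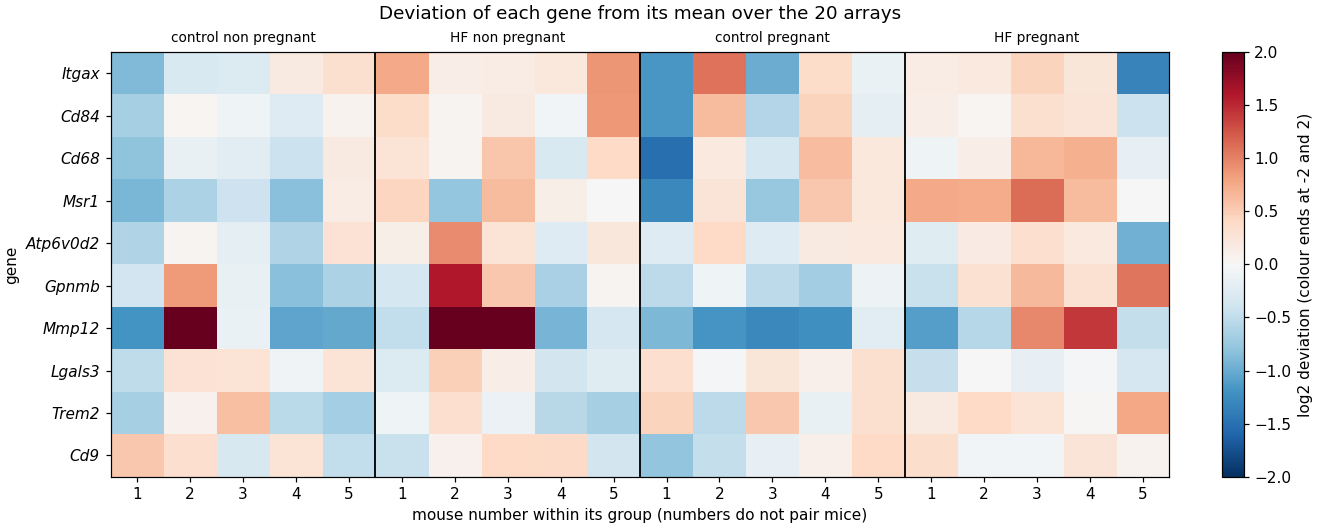
Deviation of each of the 10 genes (rows) from its mean over the 20 arrays, in log2 units as colour, for each mouse (columns, in the order of the 4 groups). Control pregnant mouse 1 is low for Itgax, Cd84, Cd68 and Msr1, and control non pregnant mouse 2 and HF non pregnant mice 2 and 3 are high for Mmp12.

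The relation of the 10 genes to each other was taken from their deviations from the group means over the 20 mice. Over the 45 pairs of genes the Pearson coefficient had a median of 0.13 and ran from -0.59 to 0.89, with 15 pairs above 0.5 and 17 below 0. These coefficients are descriptions: the points share arrays and their normalization, and the level of a gene in whole tissue follows both its cells and their activity.

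For Itgax the relations with the other 9 genes were tested by permutation (two-sided, 100000 resamples, 9 relations). It followed Cd84 most closely, with r = 0.89 and rho = 0.89 (p = 1e-05 for both, the smallest the resamples can give, adjusted p = 9e-05), and r was 0.83 without the 2 mice with the most extreme Cd84. Msr1 came next with r = 0.73 and rho = 0.71 (p = 0.00028 and 0.00064, adjusted p = 0.00126 and 0.00192 by permutation), and r = 0.69 without 2 mice. Cd68 had r = 0.70 and rho = 0.74 (p = 0.00077 and 0.00034, adjusted p = 0.00231 and 0.00153 by permutation), and r = 0.63 without 2 mice. Atp6v0d2 had r = 0.60 and rho = 0.51 (p = 0.00468 and 0.0221, adjusted p = 0.0105 and 0.0398 by permutation), and r = 0.62 without 2 mice. Without the 2 mice most extreme in Itgax itself, r was 0.87 with Cd84, 0.71 with Msr1, 0.73 with Cd68 and 0.43 with Atp6v0d2. All 4 thus varied with Itgax within the groups.

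Trem2 ran the other way, with r = -0.59 and rho = -0.63 against Itgax (p = 0.00652 and 0.00428, adjusted p = 0.0117 and 0.00963 by permutation). This r was -0.58 without the 2 mice most extreme in Trem2 and weakened to -0.44 without those most extreme in Itgax. In HF pregnant mouse 5 Trem2 was the highest of the series and Itgax the lowest. The other 4 genes gave coefficients with Itgax between -0.22 and -0.06, with adjusted p by permutation from 0.512 to 0.813.

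Apart from Itgax, Cd84 and Cd68 had r = 0.84 and Msr1 and Cd68 r = 0.80. Gpnmb and Mmp12 had r = 0.84, Mmp12 and Lgals3 r = 0.75, and Gpnmb and Lgals3 r = 0.58. Without the 2 mice of the most extreme Mmp12 values the coefficient with Gpnmb was 0.65 and that with Lgals3 0.64. Between Gpnmb and Lgals3 it fell to 0.35 without the 2 mice most extreme in Gpnmb, and to 0.49 without those most extreme in Lgals3. Atp6v0d2 had coefficients of 0.60 with Cd68, 0.56 with Cd84 and 0.40 with Msr1, and of 0.62 with Lgals3, 0.57 with Mmp12 and 0.39 with Gpnmb. That with Gpnmb was 0.13 without the 2 mice most extreme in Gpnmb and 0.54 without those most extreme in Atp6v0d2. That with Msr1 was 0.62 without the 2 mice most extreme in Atp6v0d2 and 0.71 without those most extreme in Msr1. Atp6v0d2 thus went with genes of both sets, and its coefficients with Msr1 and Gpnmb depended on few mice. Trem2 had coefficients of 0.57 with Lgals3, 0.50 with Gpnmb and 0.44 with Mmp12. They were 0.53, 0.67 and 0.54 without the 2 mice most extreme in Trem2. Without the 2 mice most extreme in the other gene they were 0.45, 0.35 and 0.26. The highest coefficient of Cd9 with any of the other 9 was 0.23, with Mmp12.

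**Figure D4:**
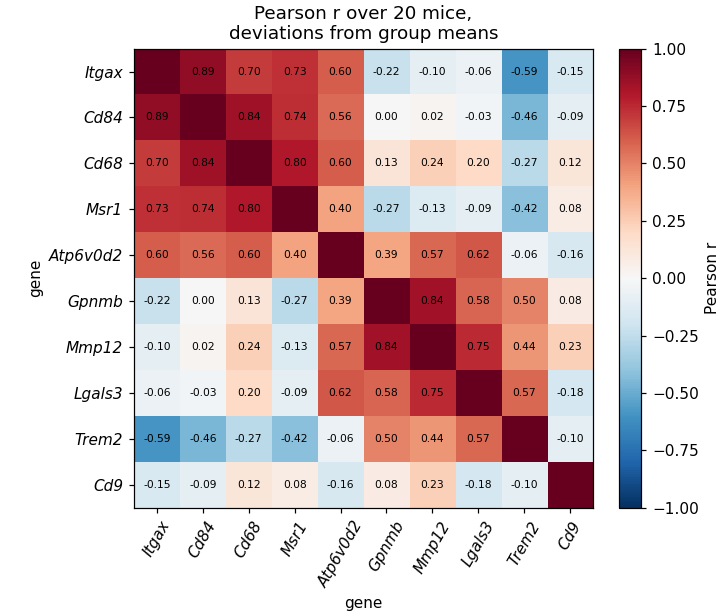
Pearson coefficient (colour and number) between each pair of the 10 genes over 20 mice, from deviations from the group means. Itgax, Cd84, Cd68 and Msr1 form a block of coefficients from 0.70 to 0.89, and Gpnmb, Mmp12 and Lgals3 one from 0.58 to 0.84. Trem2 is at -0.59 with Itgax and at 0.44 to 0.57 with Gpnmb, Mmp12 and Lgals3.

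The levels of Itgax moved with markers of other blood cells. Each list of cell markers was summed up per mouse as the mean log2 deviation of its genes. The 28 relations of Itgax, Trem2, Gpnmb and Mmp12 with 7 lists were tested by permutation, with the same limit on the p-values. Values without 2 mice left out those most extreme in the list. Itgax had r = 0.94 and rho = 0.96 with 10 dendritic cell markers, r = 0.93 and rho = 0.92 with 7 monocyte markers, r = 0.93 and rho = 0.93 with 11 T cell markers and r = 0.92 and rho = 0.91 with 9 B cell markers. Each of these had a permutation p of 1e-05 for both coefficients (adjusted p = 7e-05 for r and 5.6e-05 for rho). Without 2 mice these values of r were 0.90, 0.89, 0.88 and 0.88.

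With 18 pan-macrophage markers Itgax had r = 0.84 and rho = 0.81 (permutation p = 2e-05 and 6e-05, adjusted 9.33e-05 and 0.00028), and r = 0.76 without 2 mice. With 12 markers of resident macrophages it had r = -0.25 (adjusted permutation p = 0.356), and with 7 adipocyte markers r = -0.82 and rho = -0.84 (permutation p = 2e-05 and 1e-05, adjusted 9.33e-05 and 5.6e-05), with r = -0.80 without 2 mice. Mice with high Itgax therefore had high dendritic cell, monocyte, lymphocyte and pan-macrophage markers and low adipocyte markers.

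The B cell score differed widely between mice of 1 group. It was lowest in control pregnant mouse 1 at -2.65, control non pregnant mice 1 and 2 at -2.06 and -1.84 and HF pregnant mouse 5 at -1.89, and highest in HF non pregnant mouse 5 at 2.25. Without pregnancy the score ran from -2.06 to 0.66 on the control diet and from -0.61 to 2.25 on the HF diet. With pregnancy it ran from -2.65 to 1.59 and from -1.89 to 1.09. The T cell score ranged over -1.83 to 0.60, -0.65 to 1.59, -1.72 to 1.5 and -1.90 to 0.82, and the dendritic cell score over -0.74 to 0.22, -0.18 to 0.59, -1.05 to 0.52 and -0.91 to 0.57 in the same order. Between HF and control non pregnant mice all 9 B cell markers, all 11 T cell markers and 9 of 10 dendritic cell markers were above 0, with median log2 fold changes of 1.46, 0.99 and 0.51 beside that of 0.62 for Itgax, and 0 of these markers were called. Their part in the Itgax values was not tested.

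Trem2 gave the reverse pattern: r = 0.70 and rho = 0.73 with adipocyte markers (permutation p = 0.00067 and 0.00037, adjusted 0.00268 and 0.00148) and r = 0.63 and rho = 0.64 with markers of resident macrophages (permutation p = 0.00372 and 0.00313, adjusted 0.0130 and 0.0110). Without 2 mice r was 0.60 and 0.72. With dendritic cell markers r was -0.57 and rho -0.61 (permutation p = 0.00832 and 0.00478, adjusted 0.0198 and 0.0128), and with B cell, T cell and monocyte markers r was -0.54, -0.58 and -0.52 (adjusted permutation p = 0.0338, 0.0198 and 0.0430). With pan-macrophage markers r was -0.32 (adjusted permutation p = 0.257), and -0.17 without 2 mice. Trem2 was under 100 on 9 of the 20 arrays, which bears on all of these. Gpnmb had r = 0.59 and rho = 0.62 with resident macrophage markers (permutation p = 0.00565 and 0.00456, adjusted 0.0158 and 0.0128, r = 0.62 without 2 mice) and adjusted permutation p of r from 0.114 to 0.936 with the other 6 lists. Mmp12 had r = 0.60 and rho = 0.60 with resident macrophage markers (permutation p = 0.00469 and 0.0055, adjusted 0.0146 and 0.0128, r = 0.62 without 2 mice) and adjusted permutation p of r from 0.278 to 0.751 with the other 6 lists. As 15 of its 20 values were low and 5 spread far above them, the few high mice weigh on every coefficient of Mmp12.

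**Figure D5:**
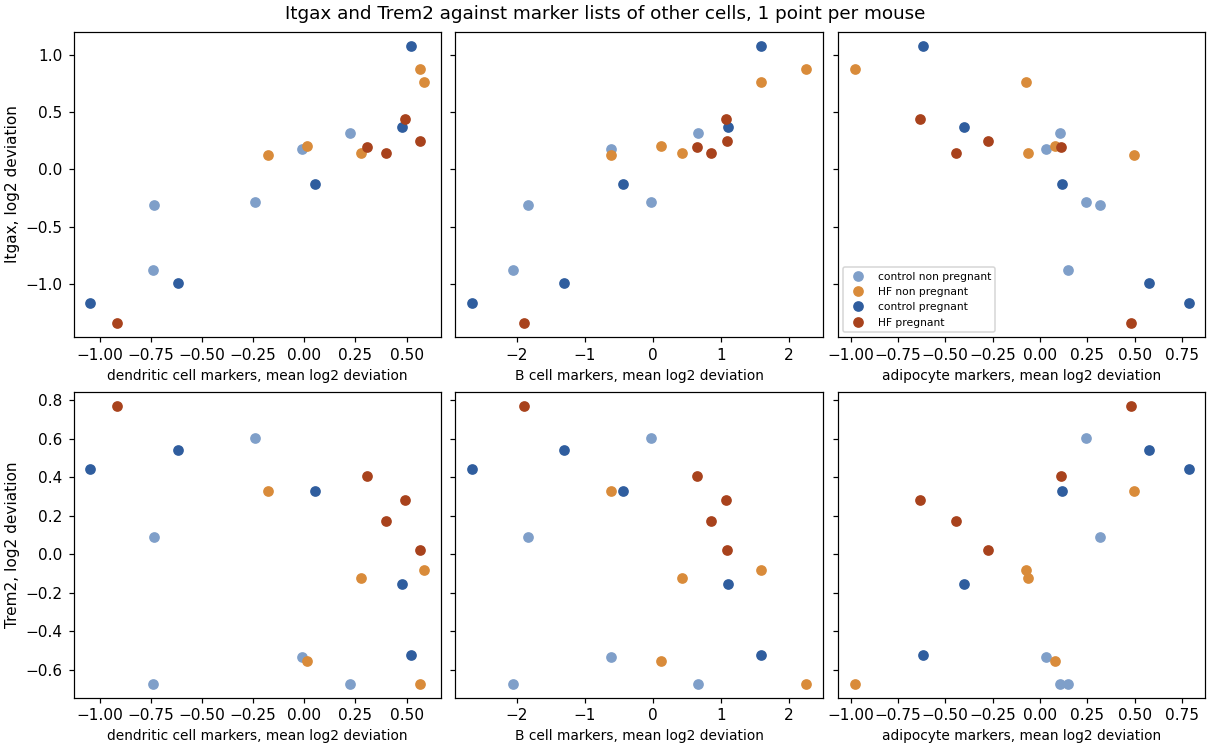
Log2 deviation of Itgax (upper row) and Trem2 (lower row) on the y axes against the mean log2 deviation of dendritic cell, B cell and adipocyte markers on the x axes, 1 point per mouse, coloured by group. Itgax is higher in mice with more dendritic and B cell signal (r = 0.94 and 0.92) and lower in mice with more adipocyte signal (r = -0.82), and Trem2 runs the other way (r = -0.57, -0.54 and 0.70).

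Of all 10602 other genes, those most like Itgax over the deviations of the 20 mice were AW112010, Lsp1, a leukocyte-specific actin-binding protein, Fscn1, an actin bundling protein of mature dendritic cells, Batf3, a transcription factor of dendritic cells, and Relb, an NF-kappaB subunit, with r from 0.96 to 0.97. Fscn1 and Batf3 are also on the list of dendritic cell markers. Over log2 intensities they were Lsp1, Dock8, Stap1, Batf3 and Hcls1, with r from 0.95 to 0.96. Among the 10602 genes Cd84 ranked at 560 by deviations, Msr1 at 1772 and Cd68 at 1959.

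For Trem2 the most like genes by deviations were Il31ra, Marchf2, Fas, Actr6 and Sav1, with r from 0.88 to 0.91, and by log2 intensity Il31ra, Pcsk5, Agt (angiotensinogen), Hif3a and Alas1, with r from 0.86 to 0.93. For Gpnmb they were Bcl6b, Mmp3, Hilpda, a lipid droplet protein, Mmp12 and Sesn2, with r from 0.81 to 0.87, and by log2 intensity Hilpda, Sesn2, Mmp3, Lhfpl2 and Morf4l2, with r from 0.82 to 0.88. For Mmp12 they were Gpnmb, Myl12a, Cpne2, Srp14 and Cd300lb, with r from 0.80 to 0.84, and by log2 intensity Myl12a, Bgn, Sgms1, Gpnmb and Pcolce2, with r from 0.81 to 0.82. Gpnmb and Mmp12 were thus among the 5 genes most like each other by deviations.

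Around the 10 genes, 3 genes of lipid and lysosome handling changed with diet. Fabp5, a fatty acid binding protein, was lower on the HF diet in pregnant mice, with group means of log2 intensity of 11.62 on the HF and 13.23 on the control diet and a log2 fold change of -1.61 ± 0.25 (SE, limma adjusted p = 0.00624). Apoe, an apolipoprotein of lipid transport made by macrophages and adipocytes, was higher, at 13.30 against 12.17, with a log2 fold change of 1.13 ± 0.21 (limma adjusted p = 0.0299). Ctsd, the lysosomal protease cathepsin D, was lower, at 11.95 against 12.93, with a log2 fold change of -0.99 ± 0.19 (limma adjusted p = 0.0404). Averaged over pregnancy the 3 genes gave -1.12, 0.77 and -0.72 (limma adjusted p = 0.00592, 0.0233 and 0.0193), where 1.34% of all genes were called. In HF against control non pregnant mice none of the 3 genes passed, where 0% of all genes were called. Fabp5 stood at -0.63 and Ctsd at -0.46 (adjusted p = 0.281 for both by limma).

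These 3 were the only genes called on the lists of genes around the 10, in the comparisons of the diet. Of 16 tested genes of lipid uptake, hydrolysis and efflux, 1 rose and 1 fell in pregnant mice, with a median of -0.05, where 0.245% of all genes were called, and of 20 lysosomal hydrolases and membrane proteins, 1 fell, with a median of 0.03. Of 14 subunits of the proton pump none was called, and for the diet averaged over pregnancy Atp6v1a stood at -0.37 (limma adjusted p = 0.0557) and Atp6ap2 at 0.22 (limma adjusted p = 0.0804). Of 6 MiT factors and their regulators none was called, with Flcn (folliculin) at 0.26 (limma adjusted p = 0.0908) and Fnip2 at 0.16 (limma adjusted p = 0.150).

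All 10 tested genes of TREM2 adaptors and signalling were above 0 for the diet averaged over pregnancy, with a median log2 fold change of 0.50 against 0.03 over all genes, and 0 of them were called. By limma without adjustment 4 of 10 had p under 0.05, against 29.1% of all genes. Tyrobp, the adaptor of TREM2, stood at 0.55 (limma adjusted p = 0.128) and Syk, the kinase it recruits, at 0.80 (limma adjusted p = 0.151). These adaptors serve receptors of many leukocytes. The B and T cell medians in the same comparison were 1.05 and 0.66, and their relation to the TREM2 signalling genes was not tested.

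Other genes of lipid-associated macrophages, 15 tested, had a median of 0.22 for the diet averaged over pregnancy and 0 calls, led by Mmp14, a membrane-bound matrix protease, at 0.31 (limma adjusted p = 0.0612) and Emp1 at 0.68 (limma adjusted p = 0.172). Of 7 tested genes of crown-like structures and inflammatory macrophages, 0 were called, with Cd86, a costimulatory molecule, at 0.73 (limma adjusted p = 0.136) and the acute phase protein Saa3 at -0.74 (limma adjusted p = 0.167). Of 18 pan-macrophage markers 17 were above 0 with 0 calls, led by the complement gene C1qa at 0.40 (limma adjusted p = 0.109) and by Csf2rb at 0.77 (limma adjusted p = 0.127). Of 12 resident macrophage markers 7 were above 0 with 0 calls, led by the transcription factor Maf at 0.38 (limma adjusted p = 0.0631) and the mannose receptor Mrc1 at 0.32 (limma adjusted p = 0.123).

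From HF non pregnant to HF pregnant mice, the same lists had 0 calls. The resident macrophage marker Clec10a stood at 0.72 (limma adjusted p = 0.472) and Maf at 0.40 (limma adjusted p = 0.817). Mmp14 stood at 0.51 (limma adjusted p = 0.293), Fabp5 at -0.94 (limma adjusted p = 0.458) and Mitf, of the MiT family, at 0.51 (limma adjusted p = 0.938). Of the 12 resident macrophage markers 10 were above 0, with a median of 0.30, where 50% of all genes were above 0. All 9 B cell markers were below 0, with a median of -0.36, as were 10 of 11 T cell markers, with a median of -0.39. Above 0 were 4 of 10 dendritic cell markers (median -0.09), 4 of 7 monocyte markers (median 0.08) and all 9 mesothelial markers (median 0.50). Itgax stood at -0.49 and Trem2 at 0.55, and the part of these lists in the 2 values was not tested.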

How the data were processed

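RNA was labelled and hybridized to the arrays by the authors, who normalized the scans together by robust multi-array average (RMA) with the affy package under R 2.8.0, per the submitters' processing notes. The values they deposited are linear intensities of probe sets, after background correction and quantile normalization. The medians of the arrays still ran from 60.69 to 64.73. The log2 of each deposited intensity was taken, with no pseudocount. The labels name Trizol and the study's methods a column kit for RNA, and no scan date or batch is given.

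Probe sets over 100 on at least 5 of 20 arrays were tested (19802 of 45101, 43.9%), without the 64 control probe sets. Limma 3.58.1 in R 4.3.3 fitted 4 group means with 1 shared spread per probe set, and 7 comparisons were read from it. P-values were adjusted by Benjamini-Hochberg and set each difference of group means against the spread between these mice. Correlations used Python 3.11.15 and scipy 1.17.1. Promoters were those of RefSeq, build GRCm38.p6. The fit was tested on simulated data. Gene names came from the platform annotation.

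The 10 genes, lists and tests were chosen with earlier results of these data known. Named were all 10 genes, up to 4 called genes of each list or the 2 with the smallest p, described where they bear on the 10 genes, and the 5 genes most like Itgax, Trem2, Gpnmb and Mmp12. Csf1r, Adgre1, Adipoq and Retn were named as tissue checks. Alternatives changed the filter, moderation, array weights, centring, normalization, probe sets, groups in the fit, a floor of 100, a replicate block and the arrays left out. NK cell, mesothelial, endothelial and fibroblast lists were also counted: 5, 9, 9 and 9 genes were tested, 0 called, with medians of 0.57, -0.07, 0.21 and 0.07 for the diet averaged over pregnancy. The number of arrays limits precision.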

Additional observations from a re-analysis of the deposited data

Results flagged for a closer look

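In 40 groups of 5 mice, 4 for each of the 10 genes, the gap between the most extreme mouse and its nearest neighbour was divided by the range of the group and compared with Dixon's critical value of 0.71. In 2 of the 40 groups the ratio was above it, and chance alone gives about 1 in 20. Mmp12 was far higher in control non pregnant mouse 2, at 366.74, than in the other mice of its group, of which the highest was at 50.23 (ratio 0.729 on the log2 scale). The same mouse had the highest Gpnmb of its group, at 433.17, and a B cell score of -1.84.

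Itgax was far lower in HF pregnant mouse 5, at 51.25, than in the other 4 mice of its group, of which the lowest was at 143.59 (ratio 0.834). This mouse also had the lowest B cell, T cell and dendritic cell scores of its group, at -1.89, -1.90 and -0.91, and the highest Trem2 and Gpnmb of its group, at 175.35 and 503.17. The part of these markers in its Itgax value was not tested.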

How the results depend on the processing

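Over the alternatives, 2652 values were recomputed, of which 2530 were counted as the same. For the fold change of a gene this meant the same direction and side of the threshold, and for a count of called genes an equal count. A median counted as the same if it moved by less than 0.35, the SD between mice of 1 group of their mean deviation over the 10 genes. As the main fit called 0 of the 10 genes in every comparison, no call could be lost. For the same reason every change of direction belonged to a value that had not been called. With arrays weighted by quality 6 genes were called in HF against control non pregnant mice, 5 for the diet averaged over pregnancy (Gpnmb, Mmp12, Msr1, Cd84 and Cd68), 1 (Mmp12, lower) in HF pregnant against HF non pregnant mice and 1 (Trem2) for pregnancy averaged over diet, where 37.8%, 45.7%, 12.3% and 7.75% of all genes were called, and 22.6%, 28.2%, 4.43% and 2.44% called higher. The median interaction of diet and pregnancy became -0.48. The cause was not tested. This weighted fit without HF non pregnant mouse 3, chosen after seeing the data, could not be fitted: its weights did not converge, 1 array had a weight of 22.7, and it called 72.0% of all genes and 7 of the 10 in HF against control non pregnant mice. Calls made by p under 0.05 before adjustment and a change of 1.5-fold gave 1 gene (Msr1) in HF against control pregnant mice and 2 (Gpnmb, Msr1) for the diet averaged over pregnancy, against 2.93% and 3.24% of all genes. With 1 array left out, the count for the diet averaged over pregnancy ran from 0 to 1, the 1 being Msr1 without control pregnant mouse 2.

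Directions turned as follows, in log2 units. With weights, HF against control non pregnant gave 0.16 for Cd9 and 0.12 for Lgals3, HF against control pregnant -0.039 for Cd9, control pregnant against non pregnant -0.11 for Itgax and 0.25 for Gpnmb, and HF pregnant against HF non pregnant 0.017 for Itgax, -0.23 for Gpnmb, -0.22 for Cd9 and -0.12 for Cd68. The interaction of diet and pregnancy became 0.12 for Itgax, -0.25 for Trem2, -0.48 for Gpnmb, -0.20 for Cd9 and -0.47 for Msr1, and pregnancy averaged over diet 0.013 for Gpnmb, 0.17 for Atp6v0d2, -0.0033 for Lgals3 and 0.045 for Cd84. Quantile normalization repeated gave -0.018 for Trem2 in HF against control non pregnant mice and 0.0087 for Gpnmb for pregnancy averaged over diet, and a floor of 100 gave -0.080 for Trem2 in HF against control non pregnant mice. Without the 2 arrays with a pancreatic signal Trem2 stood at -0.057 in HF against control non pregnant mice and at -0.0081 for the diet averaged over pregnancy, Itgax, Cd84 and Cd68 at -0.19, -0.21 and -0.013 in control pregnant against non pregnant mice, and Cd68 at 0.068 for the interaction of diet and pregnancy.

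With 1 array left out, HF against control non pregnant ran from -0.12 to 0.23 for Trem2 and -0.20 to 0.063 for Cd9. HF against control pregnant ran from -0.14 to 0.43 for Itgax, -0.26 to 0.062 for Atp6v0d2 and -0.015 to 0.43 for Cd84. Control pregnant against non pregnant ran from -0.29 to 0.28 for Itgax, -0.31 to 0.11 for Gpnmb, -0.19 to 0.26 for Cd84 and -0.082 to 0.45 for Cd68. HF pregnant against HF non pregnant ran from -0.085 to 0.48 for Gpnmb, -0.015 to 0.20 for Cd9 and -0.069 to 0.16 for Cd68. The interaction ran from -0.025 to 0.32 for Trem2, -0.90 to 0.61 for Mmp12, -0.027 to 0.43 for Msr1 and -0.40 to 0.14 for Cd68. Pregnancy averaged over diet ran from -0.12 to 0.16 for Gpnmb, -0.11 to 0.061 for Atp6v0d2, -0.069 to 0.068 for Lgals3, -0.21 to 0.017 for Cd84 and -0.013 to 0.25 for Cd68.

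Mice with the same number in different groups did not pair: over 30 pairs of arrays their deviations had a median correlation of -0.16 (range -0.75 to 0.67), and 10 pairs were over 0.1. With the number as a block the diet difference of Msr1 kept its 0.73 with an adjusted p of 0.167, and 0 of the 10 genes were called in any of the 7 comparisons. Mmp12, Atp6v0d2 and Trem2 were under 100 in 15, 10 and 9 mice and Itgax in 4, which limits these values.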
